A study of Mus musculus with 6 samples.

Results

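The genes described are 10 of the 38926 gene symbols in the count tables, taken by symbol: the opioid receptors Oprm1, Oprd1, Oprk1 and Oprl1, the opioid peptide precursors Penk, Pdyn, Pomc and Pnoc, and the cannabinoid receptors Cnr1 and Cnr2. Dorsal root ganglia, which hold the cell bodies of sensory neurons beside glia, vessels and immune cells, were taken at lumbar levels L3, L4 and L5 on the side of the treated paw. The mice were female wild-type C57BL/6 animals 8 to 10 weeks old. The 3 vincristine samples came from mice given a cumulative 40 µg of vincristine, a tubulin-binding chemotherapy drug, by intraplantar injection, and the 3 vehicle samples from mice given vehicle. Each sample pooled the ganglia of 4 animals, so differences between single mice are not seen, and the names of the deposited tables give a dose of 10 µg in place of the cumulative one. How long after the last injection the ganglia were taken is not stated in the labels.

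Opioid and cannabinoid receptors couple to inhibitory G proteins of the Gi/o class. In sensory neurons their activation closes voltage-gated calcium channels and lowers transmitter release at the central and peripheral terminals. Enkephalins from Penk act on the delta and mu receptors (Oprd1, Oprm1), dynorphins from Pdyn on the kappa receptor (Oprk1), beta-endorphin from Pomc mainly on the mu receptor, and nociceptin from Pnoc on the nociceptin receptor (Oprl1). Cnr1 encodes CB1, which is found in many neurons, and Cnr2 encodes CB2, which is found mainly in immune cells.

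Libraries held 12374331 to 26346304 reads in genes in vincristine and 17967934 to 19917055 in vehicle. The smallest, vincristine replicate 1, stood apart from the other 5 on the first principal component, which held 56.4% of the variance. The 20 pan-neuronal markers summed to 5180, 10830 and 13190 counts-per-million (CPM) in vincristine replicates 1 to 3 and to 10290 to 13570 CPM in vehicle. Neutrophil markers summed to 8176, 2699 and 3081 CPM in vincristine and to 857.4 to 1487 CPM in vehicle, macrophage markers to 1133, 685.0 and 712.8 CPM against 463.3 to 561.6 CPM, and spinal cord and brain markers to 379.1, 131.9 and 113.4 CPM against 93.17 to 162.1 CPM. Of these lists, only Neurod6 of the spinal cord and brain list was at 0 in any library. Erythroid markers summed to 13770, 5335 and 6121 CPM in vincristine and to 2785 to 4516 CPM in vehicle. The part of these cell populations in the results below was not tested, and in bulk tissue fewer cells of a type cannot be told apart from less RNA per cell.

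No opioid or cannabinoid gene passed the test over all genes: of the 10, 9 had enough reads to be tested, and 0 had an adjusted p under 0.05 by edgeR's quasi-likelihood test, where 0.359% of all 16706 tested genes did. The delta receptor gene Oprd1 had the largest estimated difference, at 34.1% of its vehicle level, and was called by DESeq2. Of the 9 tested genes 5 had lower and 4 higher estimates in vincristine, with a median log2 fold change of -0.08 beside -0.00 over all tested genes. Oprd1 and Oprl1 were lower at an unadjusted p under 0.05 in edgeR, a mark reached by 3.27% of all tested genes in that direction. The same 2 genes had every vincristine library below every vehicle library, as did 9.51% of all tested genes, and no tested member had every vincristine library above every vehicle library, as 11.5% of genes did.

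**Figure D1:**
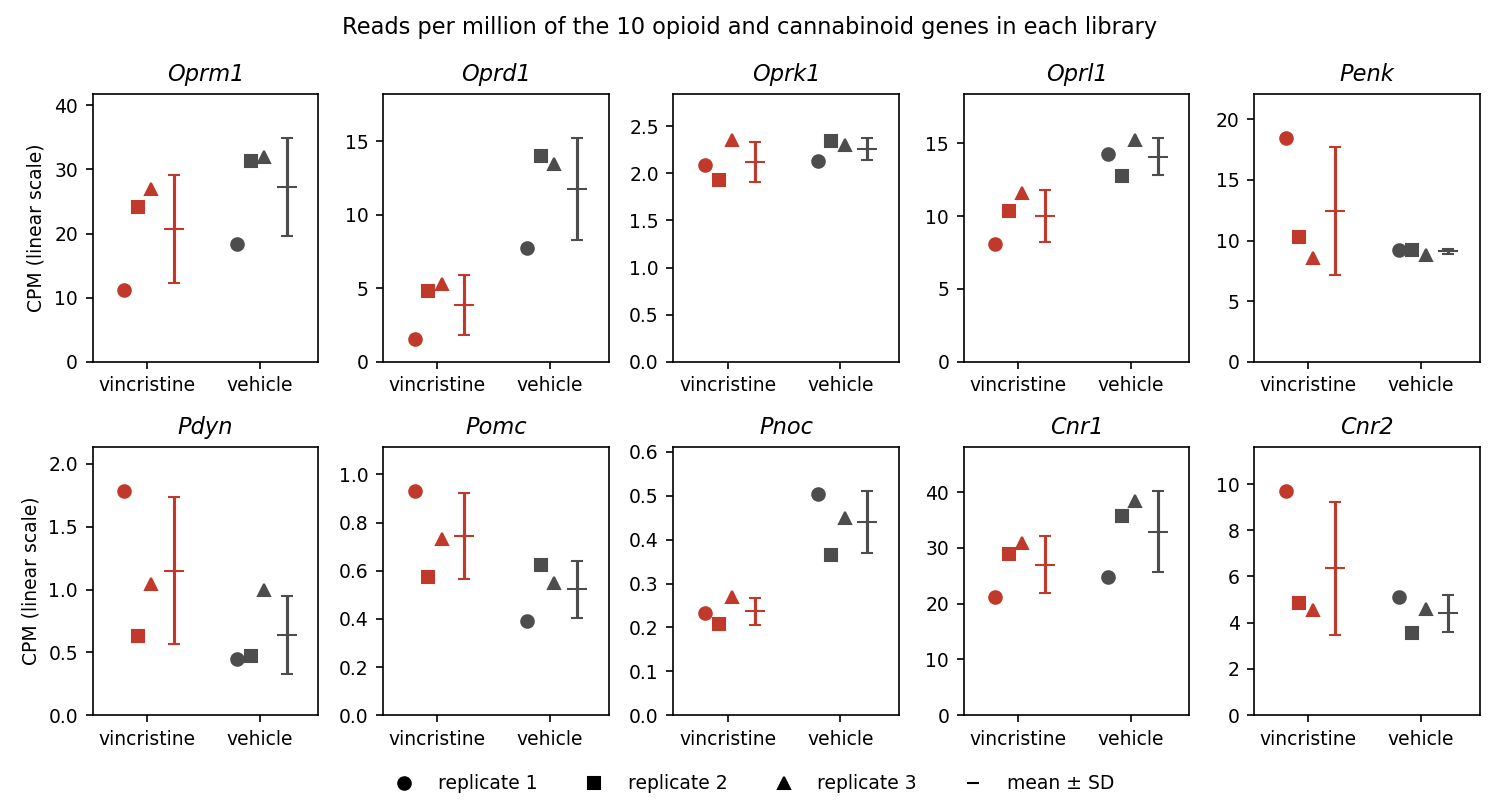
Level of each of the 10 genes in CPM, on a separate linear axis per gene, with vincristine left of vehicle; points are pooled samples and bars the mean and SD (n = 3 each). Oprd1 reads 1.55 to 5.32 CPM in vincristine and 7.73 to 14.0 CPM in vehicle, and Penk and Cnr2 have a single high vincristine sample, replicate 1.

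Per base of gene model, Penk and Cnr1 stood highest among the 10 and Pnoc lowest in both groups. On the scale of transcripts-per-million (TPM), computed from the union of annotated exons, Penk averaged 19.5 ± 7.99 TPM in vincristine and 14.8 ± 0.920 TPM in vehicle (SD, n = 3 each, as for all TPM values). Cnr1 followed with 10.7 ± 2.13 TPM in vincristine and 13.7 ± 3.93 TPM in vehicle, Oprl1 with 6.84 ± 1.28 against 9.96 ± 1.36 TPM, and Oprm1 with 6.65 ± 2.73 against 9.12 ± 3.11 TPM. In vehicle Oprd1 came next at 7.86 ± 2.77 TPM, above Cnr2 at 2.93 ± 0.461 TPM. In vincristine Cnr2 averaged 4.09 ± 1.80 TPM and Oprd1 2.49 ± 1.32 TPM, so their means stood in the opposite order. That order held clearly in vincristine replicate 1 alone, where Cnr2 was at 6.15 TPM and Oprd1 at 0.975 TPM. In replicates 2 and 3 the pair lay close together, with Cnr2 at 3.18 and 2.92 TPM and Oprd1 at 3.11 and 3.39 TPM.

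The rest were low: Pomc averaged 1.45 ± 0.325 TPM in vincristine and 1.06 ± 0.299 TPM in vehicle, Pdyn 1.02 ± 0.504 against 0.599 ± 0.333 TPM, Oprk1 0.596 ± 0.0558 against 0.657 ± 0.0807 TPM, and Pnoc 0.282 ± 0.0349 against 0.539 ± 0.0716 TPM. Among neighbours in the vehicle order, the libraries' ranges did not overlap between Oprd1 and Cnr2, between Cnr2 and Pomc, and between Pomc and Oprk1. The ranges of the other neighbours overlapped. Penk, whose range overlapped that of Cnr1, was nevertheless above Oprl1, Oprm1 and Oprd1 in every vehicle library, with a lowest value of 13.7 TPM beside highest values of 11.5, 11.3 and 9.49 TPM. The place of Oprm1 depended on its gene model. Its 31 annotated transcripts span 8037 exonic bases in union while the longest has 2420, and with the longest transcript as length Oprm1 became the highest of the 10, at 18.9 TPM in vincristine and 25.8 TPM in vehicle.

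**Figure D2:**
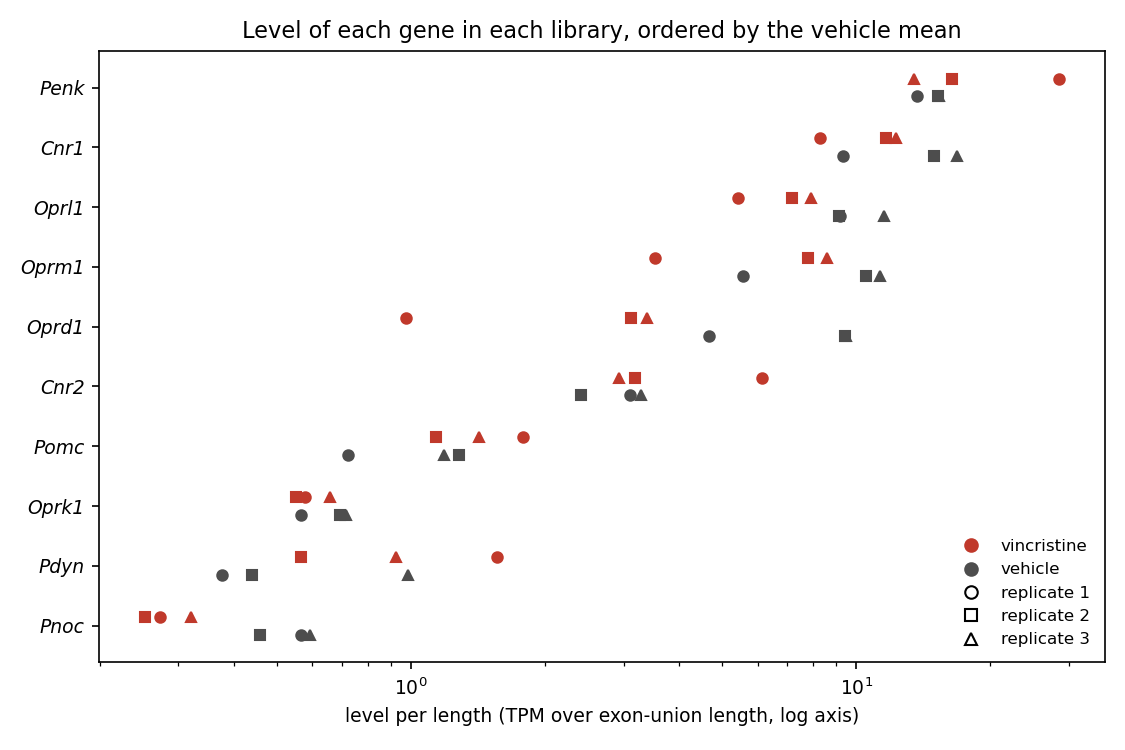
Level per length of the 10 genes in TPM on a log axis, ordered by the vehicle mean; points are pooled samples, with vincristine drawn above vehicle. In vehicle, Penk, Cnr1, Oprl1, Oprm1, Oprd1 and Cnr2 lie at 2.41 TPM or above in each sample, and Pomc, Oprk1, Pdyn and Pnoc at 1.28 TPM or below.

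Oprd1 (GRCm38 chr4:132110726-132144486, minus strand) encodes the delta opioid receptor, which in the mouse ganglion is known from myelinated mechanosensory neurons and non-peptidergic nociceptors. It had 1.55, 4.80 and 5.32 CPM in vincristine replicates 1, 2 and 3, against 7.73, 14.0 and 13.4 CPM in vehicle replicates 1, 2 and 3. The highest vincristine library was below the lowest vehicle library. These values rest on 20, 92 and 138 reads in vincristine and on 138, 269 and 269 in vehicle, so counting error is widest in vincristine replicate 1. The means were 3.89 ± 2.04 CPM in vincristine and 11.7 ± 3.48 CPM in vehicle (SD, n = 3 each). The log2 fold change was -1.55 ± 0.43 (SE), with a 95% interval of -2.56 to -0.54.

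By edgeR this difference had an unadjusted p of 0.00822 and an adjusted p of 0.238, and Oprd1 was not called. DESeq2 gave -1.59 ± 0.44 with an adjusted p of 0.0154 and called Oprd1 lower, as it did 0.402% of its 19417 tested genes. Under DESeq2 the call held without each vincristine library in turn and without vehicle replicate 1, but not without vehicle replicate 2 (adjusted p = 0.231) or vehicle replicate 3 (adjusted p = 0.161). limma-voom with sample quality weights, which gave vincristine replicate 1 a weight of 0.194, also called it, at -1.35 ± 0.26 with an adjusted p of 0.0378, and called 0.455% of all genes lower. Without vincristine replicate 1 the edgeR estimate was -1.21 with an adjusted p of 0.0783, in a fit that called 2.05% of all genes in either direction.

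Oprm1 (chr10:6758506-7038198, plus strand) encodes the mu receptor, the main target of morphine, and is known from peptidergic nociceptors. It had 11.2, 24.1 and 27.0 CPM in vincristine, against 18.4, 31.3 and 32.0 CPM in vehicle. Vincristine replicate 1 was lowest of the 6, and replicates 2 and 3 lay within the vehicle range. The means were 20.8 ± 8.40 CPM in vincristine and 27.2 ± 7.63 CPM in vehicle (SD, n = 3 each), and the log2 fold change was -0.38 ± 0.35 (edgeR adjusted p = 0.711). The 95% interval of that difference, -1.19 to 0.43, spans changes in both directions, and without vincristine replicate 1 the estimate was -0.09. An end of Oprm1 shares 96 exonic bases with Ipcef1 on the opposite strand, whose reads numbered 218 to 361 in vincristine and 106 to 135 in vehicle. The labels do not say whether counting used strand, and without it reads of that overlap cannot be told apart.

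The balance between the delta and mu receptors was set in each library as Oprd1 reads per 100 Oprm1 reads, a measure chosen after the values of both were seen. It was 13.8, 19.96 and 19.7 in vincristine and 42.0, 44.8 and 42.0 in vehicle. The vincristine libraries all lay below the vehicle libraries, and vincristine replicate 1, in which both receptors were lowest, was no exception. The log2 ratio differed by -1.29, with a two-sided exact permutation p of 0.1, the smallest that 3 samples against 3 allow. Cnr1 reads per 100 Oprm1 reads were 188, 120 and 114 in vincristine and 134, 114 and 120 in vehicle, overlapping (log2 difference 0.16, exact permutation p = 0.6).

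Oprl1 (chr2:181715016-181720985, plus strand) encodes the nociceptin receptor. It had 8.05, 10.3 and 11.6 CPM in vincristine, against 14.2, 12.7 and 15.2 CPM in vehicle. The groups did not overlap, by a margin of about 1 CPM between the highest vincristine and the lowest vehicle library. Vincristine averaged 71.5% of vehicle, a log2 fold change of -0.48 ± 0.17 (unadjusted p = 0.0218, edgeR adjusted p = 0.343), with a 95% interval of -0.88 to -0.09. DESeq2 gave -0.50 with an adjusted p of 0.226, and no alternative called it.

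Oprk1 (chr1:5588466-5606131, plus strand) encodes the kappa receptor and differed least of the 9 tested genes. It had 2.09, 1.93 and 2.35 CPM in vincristine, against 2.13, 2.34 and 2.30 CPM in vehicle. The groups overlapped and each spanned a narrow range, 2.12 ± 0.212 CPM in vincristine and 2.26 ± 0.114 CPM in vehicle (SD, n = 3 each). The log2 fold change was -0.08 ± 0.20 (edgeR adjusted p = 0.908), with a 95% interval of -0.56 to 0.39.

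**Figure D3:**
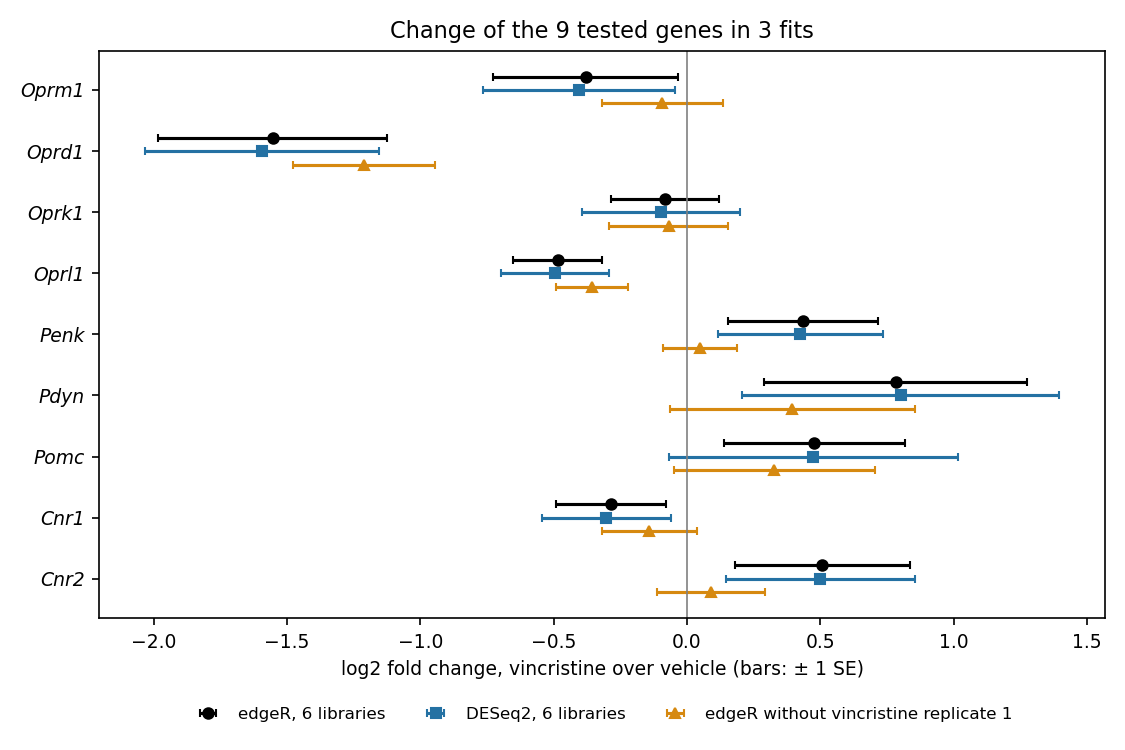
Log2 fold change of vincristine over vehicle for the 9 tested genes by edgeR, by DESeq2 and by edgeR without vincristine replicate 1; bars are 1 SE on either side. Oprd1 lies at -1.55, -1.59 and -1.21 in the 3 fits, and Penk (0.05) and Cnr2 (0.09) lie near 0 without that replicate.

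Penk and Pdyn carry enkephalin sequences as short repeats between processing sites, while Pomc holds a single enkephalin sequence and Pnoc a single nociceptin start. These coding stretches are short enough to be shown beside the counts. All enkephalin copies start with codons for tyrosine, 2 glycines and phenylalanine, and the last codon, in capitals below, separates Met-enkephalin (ATG) from Leu-enkephalin. The stretches were read from GENCODE M21 transcripts on GRCm38 and are written 5′ to 3′ on the coding strand. Penk (chr4:4133531-4138819, minus strand) holds 6 Met-enkephalin copies and 1 Leu-enkephalin copy in exon 2, in 6 distinct spellings. Copies 1, 6 and 7 of Penk, the 3 copies of Pdyn (chr2:129686565-129699844, minus strand, exon 4) and the single copy at the start of beta-endorphin in Pomc (chr12:3954951-3960642, plus strand, exon 4) are printed to show how the precursors differ in that codon. The nociceptin start in Pnoc (chr14:65400673-65425472, minus strand, exon 3) is added because it has a phenylalanine codon, in capitals, where the enkephalins have tyrosine.
Penk copy 1, Met-enkephalin, chr4:4134334-4134348: tacggaggcttcATG
Penk copy 6, Leu-enkephalin, chr4:4133941-4133955: tatgggggcttcCTG
Penk copy 7, Met-enkephalin, chr4:4133848-4133862: tacgggggctttATG
Pdyn copy 1, Leu-enkephalin, chr2:129688238-129688252: tatggcggctttTTG
Pdyn copy 2, Leu-enkephalin, chr2:129688130-129688144: tatgggggcttcCTG
Pdyn copy 3, Leu-enkephalin, chr2:129688073-129688087: tatggtggtttcCTG
Pomc, Met-enkephalin sequence, chr12:3960373-3960387: tacggtggcttcATG
Pnoc, start of nociceptin, chr14:65404881-65404892: TTTgggggcttc
Penk copy 6 and Pdyn copy 2 are spelled identically over these 15 bases, which is far shorter than the 75-nucleotide reads.

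Penk had 18.4, 10.3 and 8.59 CPM in vincristine, against 9.24, 9.22 and 8.85 CPM in vehicle. A single library, vincristine replicate 1, was high, and the other 5 lay between 8.59 and 10.3 CPM. The log2 fold change was 0.44 ± 0.28 (edgeR adjusted p = 0.607) with vincristine replicate 1 and 0.05 without it. That library also had the highest summed levels of neutrophil, macrophage, erythroid and spinal cord and brain markers of the 6 and the lowest pan-neuronal sum; the part of these in the Penk value was not tested. The exons of Penk overlap A830012C17Rik on the opposite strand by 233 bases, but that gene had at most 4 reads in any library.

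Pdyn, the dynorphin precursor, had 23, 12 and 27 reads in vincristine, against 8, 9 and 20 reads in vehicle. This came to 1.78, 0.627 and 1.04 CPM in vincristine and 0.448, 0.469 and 1.0 CPM in vehicle, with overlapping groups. The log2 fold change was 0.78 ± 0.49 (edgeR adjusted p = 0.597), and 0.40 without vincristine replicate 1. Pomc, the beta-endorphin precursor, had 12, 11 and 19 reads in vincristine, against 7, 12 and 11 reads in vehicle, and its groups overlapped as well (log2 fold change 0.48 ± 0.34, edgeR adjusted p = 0.640). At these depths the 95% intervals, -0.38 to 1.95 for Pdyn and -0.32 to 1.27 for Pomc, leave room for a doubling or for no difference.

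Pnoc, the nociceptin precursor, was the single member without enough reads for the edgeR fit. It had 3, 4 and 7 reads in vincristine, against 9, 7 and 9 in vehicle. Scaled to library size, these were 0.232, 0.209 and 0.270 CPM in vincristine and 0.504, 0.365 and 0.450 CPM in vehicle, which did not overlap. The sums were 14 reads in vincristine (95% Poisson interval 7.65 to 23.5) and 25 in vehicle (16.2 to 36.9), and these intervals overlap; the intervals cover counting error only. DESeq2, which kept the gene, gave a log2 fold change of -0.89 ± 0.71 with an adjusted p of 0.766. With the low-count filter removed, edgeR gave -0.87 ± 0.46 with an adjusted p of 0.653, so neither tool called it.

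Cnr1 (chr4:33924593-33948831, plus strand), encoding the CB1 receptor, had 21.1, 28.9 and 30.8 CPM in vincristine, against 24.8, 35.6 and 38.3 CPM in vehicle. The groups overlapped, with vincristine replicate 1 lowest and 2 of the vehicle libraries highest. The means were 26.9 ± 5.13 CPM in vincristine and 32.9 ± 7.19 CPM in vehicle (SD, n = 3 each), and the log2 fold change was -0.28 ± 0.21 (edgeR adjusted p = 0.649).

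Cnr2 (chr4:135895394-135920207, plus strand), encoding the CB2 receptor, had 9.68, 4.86 and 4.55 CPM in vincristine, against 5.10, 3.54 and 4.60 CPM in vehicle. As with Penk, vincristine replicate 1 alone was high and the other libraries overlapped. The log2 fold change was 0.51 ± 0.33 (edgeR adjusted p = 0.608), and 0.09 without that library. Beside it, B-cell markers, another population in which CB2 is known, summed to 100.6, 46.47 and 55.42 CPM in vincristine and to 147.5, 123.5 and 195.1 CPM in vehicle. Of these 12 markers edgeR called 7 lower, where it called 11 of all 16706 tested genes lower. It called 0 of the neutrophil and macrophage markers. At an unadjusted p under 0.05, 13 of 14 neutrophil and 11 of 14 macrophage markers were higher, beside 11.4% of all tested genes in either direction. The B-cell sums were thus lower in every vincristine library, while the neutrophil and macrophage sums were higher in every one; their part in the Cnr2 value was not tested.

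Each gene was also set against the neurons' share of its library, as its log2 CPM (pseudocount 0.5) minus the median of the 20 pan-neuronal markers. On this scale Oprd1 stood at -6.36, -6.04 and -6.17 in vincristine and at -5.21, -4.94 and -4.89 in vehicle. The groups were again apart, by -1.18, with an exact permutation p of 0.1, the smallest possible here. Oprm1 stood at -3.85, -3.83 and -3.93 in vincristine and at -4.01, -3.81 and -3.67 in vehicle, so its low value in vincristine replicate 1 went with a low pan-neuronal median in that library. The Oprm1 difference was -0.04 (exact permutation p = 0.8), and its sign turned to 0.04 without vehicle replicate 3. Oprl1, whose CPM did not overlap, did overlap on this scale (difference -0.09, exact permutation p = 0.9), and with a library left out it ran between -0.34 (without vincristine replicate 1) and 0.09 (without vehicle replicate 1). It was positive also without vincristine replicate 2 (0.01) or 3 (0.07), and at -0.26 without vehicle replicate 2.

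Relative to the pan-neuronal median, Pomc was higher in every vincristine library than in any vehicle library (difference 0.68, exact permutation p = 0.1), but the nearest libraries, vincristine replicate 3 at -8.41 and vehicle replicate 1 at -8.42, all but met, and without vincristine replicate 1 the difference was 0.18. The differences of Penk (0.75), Pdyn (0.90), Cnr2 (0.81), Oprk1 (0.32), Cnr1 (0.12) and Pnoc (0.05) had exact permutation p between 0.2 and 0.9 with overlapping groups. Without vincristine replicate 1 those of Penk, Pdyn and Cnr2 were 0.05, 0.25 and 0.10, and those of Oprk1, Cnr1 and Pnoc turned negative, at -0.06, -0.11 and -0.34. Pnoc was also negative with a pseudocount of 0.1 CPM (-0.28), against the mean of the marker list (-0.02) and without vehicle replicate 2 (-0.12). Markers of neuron classes were read beside these values, and differences between the classes were not tested. The 15 non-peptidergic nociceptor markers were at a median of -0.72 (log2 fold change), with 0 called by edgeR. Of them 4 were lower at an unadjusted p under 0.05 in edgeR, a mark that 3.27% of all tested genes reached in that direction. Per library their median lay -1.53, -0.38 and -0.29 from the vehicle mean in vincristine, farthest in replicate 1. The 13 myelinated neuron markers had a median of -0.12, with 0 called by edgeR or DESeq2 and 0 at an unadjusted p under 0.05. The 12 peptidergic nociceptor markers had a median of -0.25 and the 20 pan-neuronal markers -0.32, with 0 called by edgeR in either list. At an unadjusted p under 0.05 in edgeR, 2 peptidergic markers were higher, Gal (2.23) and Adcyap1 (0.91), and 2 lower. Among the pan-neuronal markers 1 was higher, Gap43 (0.84), and 0 lower. Of all tested genes 11.4% reached that mark in either direction. DESeq2 called 1 peptidergic marker higher, Gal, and 1 non-peptidergic marker lower, and 0 of the pan-neuronal list. Gal, Adcyap1 and Gap43 also stand on the axon injury list, so their rise cannot be read as that of a neuron class.

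**Figure D4:**
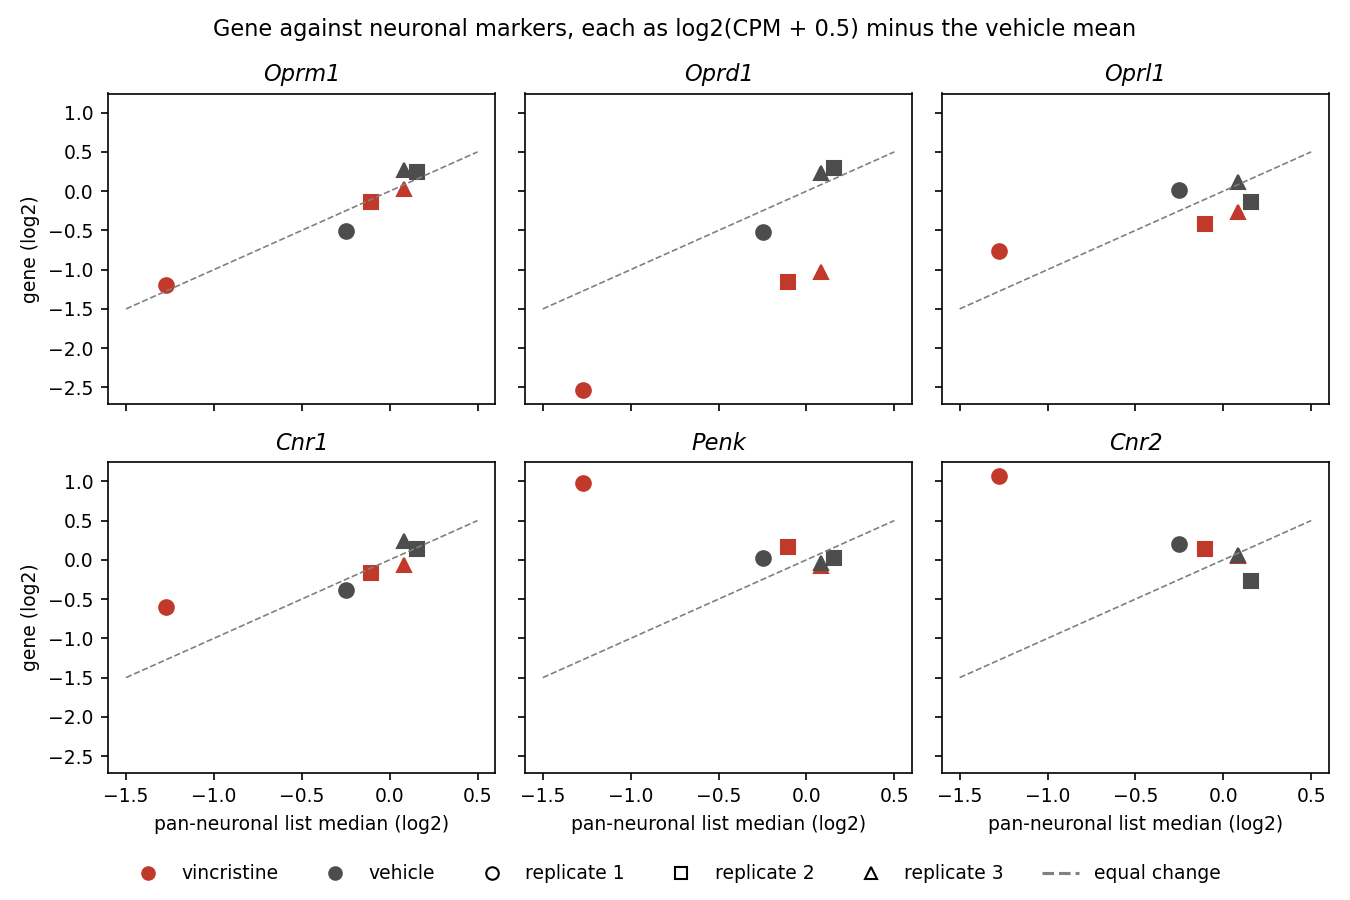
Log2(CPM + 0.5) of 6 of the genes (vertical axis) against the median of the pan-neuronal markers (horizontal axis), both as the difference from the vehicle mean, with a point for each pooled sample and a dashed line for equal change. In vincristine replicate 1 Oprm1 (-1.20) lies near the line at a marker median of -1.27, Oprd1 (-2.53) lies below it, and Penk (0.98) and Cnr2 (1.06) lie above it.

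Across the 6 libraries, the genes whose centred log2 CPM lay nearest to that of each member were found among 14100 tested genes of at least 1 CPM, by root mean square difference. Nearest to Oprm1 were Lrfn1 (0.0545), Slitrk3 (0.0593) and Fbxo41 (0.0705), and to Cnr1 Peg3 (0.0398), Amer1 (0.0462) and Lgi2 (0.0491). Nearest to Oprd1 were Kcnmb1 (0.273), Lrrc31 (0.274) and Serpina1e (0.311) at larger distances than for the other members, whose own spread was smaller: Oprd1 spanned 3.18 on the log2 scale and Oprm1 1.51. Oprl1 had Extl2 (0.0528), Slc25a25 (0.0730) and Lyplal1 (0.0797), and Oprk1, which barely varied, had Tbck (0.0381), Cdkn2d (0.0438) and Med17 (0.0464). Penk lay nearest to Gbp8 (0.0537), Ticam2 (0.0851) and Diap3 (0.0859), and Cnr2 to Hist1h4c (0.0414), Hist1h2be (0.0485) and Napsa (0.0548).

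The genes around these receptors and peptides were read from 6 lists, with 165 tested genes outside the 10; edgeR called 0 of them, 21 had an unadjusted p under 0.05, and DESeq2 called 6. Over all genes, 11.4% had an unadjusted p under 0.05 in edgeR and 2.84% were called by DESeq2 in either direction, so the counts of surrounding genes lie near the background. The 22 genes of propeptide processing and peptide degradation had a median log2 fold change of -0.19, with 20 estimates below 0, from -0.58 (Scg3) to 0.18 (Furin). Neither tool called any and 0 had an unadjusted p under 0.05. Per library their median lay -0.58, -0.10 and -0.01 from the vehicle mean in vincristine replicates 1 to 3. In vehicle it lay between -0.11 and 0.10, so only vincristine replicate 1 was outside the vehicle range. Ece2, a metallopeptidase able to cleave opioid peptides, averaged 53.8 ± 16.7 CPM in vincristine and 74.2 ± 3.80 CPM in vehicle (SD, n = 3 each), at -0.46 ± 0.23 (edgeR adjusted p = 0.505). Scg5, a chaperone of the convertase PC2 that cuts the precursors, averaged 44.0 ± 7.18 CPM in vincristine and 55.0 ± 6.08 CPM in vehicle, at -0.32 ± 0.15 (edgeR adjusted p = 0.488). Both were lowest in vincristine replicate 1: in replicates 1 to 3 Ece2 had 34.8, 60.9 and 65.8 CPM and Scg5 35.8, 47.5 and 48.8 CPM.

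Of the 26 receptor partners and trafficking genes 0 were called by either tool, 3 had an unadjusted p under 0.05, and the median was -0.11. Arrb2, encoding beta-arrestin 2, which uncouples and internalises activated receptors, had 70.7, 45.7 and 51.1 CPM in vincristine and 37.3, 37.2 and 37.8 CPM in vehicle. The groups did not overlap, and the log2 fold change was 0.57 ± 0.17 (edgeR adjusted p = 0.263); Arrb2 is also abundant in leukocytes, and vincristine replicate 1 was again highest. Ogfrl1 was at -0.39 ± 0.13 (edgeR adjusted p = 0.331).

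Among the 49 Gi/o signalling genes, with a median of -0.09, edgeR called 0, 9 had an unadjusted p under 0.05 and DESeq2 called 2 lower, Gng8 and Rgs10. Gng8, a G protein gamma subunit, had 2.17, 2.25 and 1.77 CPM in vincristine and 4.20, 4.79 and 5.35 CPM in vehicle. Every vincristine library, replicate 1 included, lay well below the vehicle range, with a log2 fold change of -1.22 ± 0.20 (edgeR adjusted p = 0.0850, DESeq2 adjusted p = 0.000507). Rgs10, which speeds the deactivation of Gi/o subunits, was at -0.78 ± 0.22 (edgeR adjusted p = 0.238, DESeq2 adjusted p = 0.0334). Rgs20, of the same class of regulators, averaged 2.34 ± 0.561 CPM in vincristine and 1.15 ± 0.197 CPM in vehicle (SD, n = 3 each), at 1.04 ± 0.28 (edgeR adjusted p = 0.224).

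The 27 factors known to act on Oprm1 transcription or silencing had a median of 0.13, with 22 estimates above 0. Per library their median lay 0.27, 0.07 and 0.07 from the vehicle mean in vincristine replicates 1 to 3, farthest in replicate 1. In vehicle it lay between -0.04 and 0.02. Of these factors edgeR called 0, 4 had an unadjusted p under 0.05 and DESeq2 called Fos and Jun higher. Both encode subunits of the AP-1 transcription factor. Fos averaged 13.6 ± 1.43 CPM in vincristine and 8.00 ± 0.391 CPM in vehicle (SD, n = 3 each), at 0.77 ± 0.14 (edgeR adjusted p = 0.0954, DESeq2 adjusted p = 0.00169). Jun, which also stands on the axon injury list, had 84.9, 116 and 149 CPM in vincristine and 69.9, 55.9 and 63.7 CPM in vehicle (0.89 ± 0.21, edgeR adjusted p = 0.193, DESeq2 adjusted p = 0.0109).

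The 26 genes of endocannabinoid synthesis and breakdown had a median of -0.02; edgeR called 0, 4 had an unadjusted p under 0.05 and DESeq2 called Alox5 higher. Alox5, a leukocyte lipoxygenase that can oxidise arachidonic acid and its derivatives, had 30.6, 13.2 and 13.9 CPM in vincristine and 9.92, 5.63 and 8.00 CPM in vehicle (1.28 ± 0.37, edgeR adjusted p = 0.266, DESeq2 adjusted p = 0.0318). Vincristine replicate 1 was highest, as were its neutrophil and macrophage sums, whose part was not tested. Inpp5d, a phosphatase of leukocytes, was at 0.60 ± 0.20 (edgeR adjusted p = 0.322). The main degrading enzymes, named here after their values were seen, differed little: Faah, which breaks down anandamide, was at -0.12 (edgeR adjusted p = 0.794) and Mgll, which breaks down 2-arachidonoylglycerol, at -0.21 (edgeR adjusted p = 0.616).

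Of 15 tested genes for other targets of cannabinoids and related lipids, with a median of -0.08, edgeR called 0, 1 had an unadjusted p under 0.05 and DESeq2 called 1. That gene was Gpr119, a receptor for oleoylethanolamide and related lipids, with 1.86, 2.19 and 3.08 CPM in vincristine and 0.784, 0.729 and 0.700 CPM in vehicle. The groups were well apart, with a log2 fold change of 1.70 ± 0.28 (edgeR adjusted p = 0.0850, DESeq2 adjusted p = 0.00261). Trpa1, an irritant-gated channel of nociceptors, averaged 35.8 ± 19.3 CPM in vincristine and 59.8 ± 6.93 CPM in vehicle (SD, n = 3 each), at -0.73 ± 0.40 (edgeR adjusted p = 0.549). In vincristine replicates 1 to 3 it had 14.5, 40.6 and 52.3 CPM, lowest in replicate 1, beside a lowest vehicle value of 53.7 CPM.

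**Figure D5:**
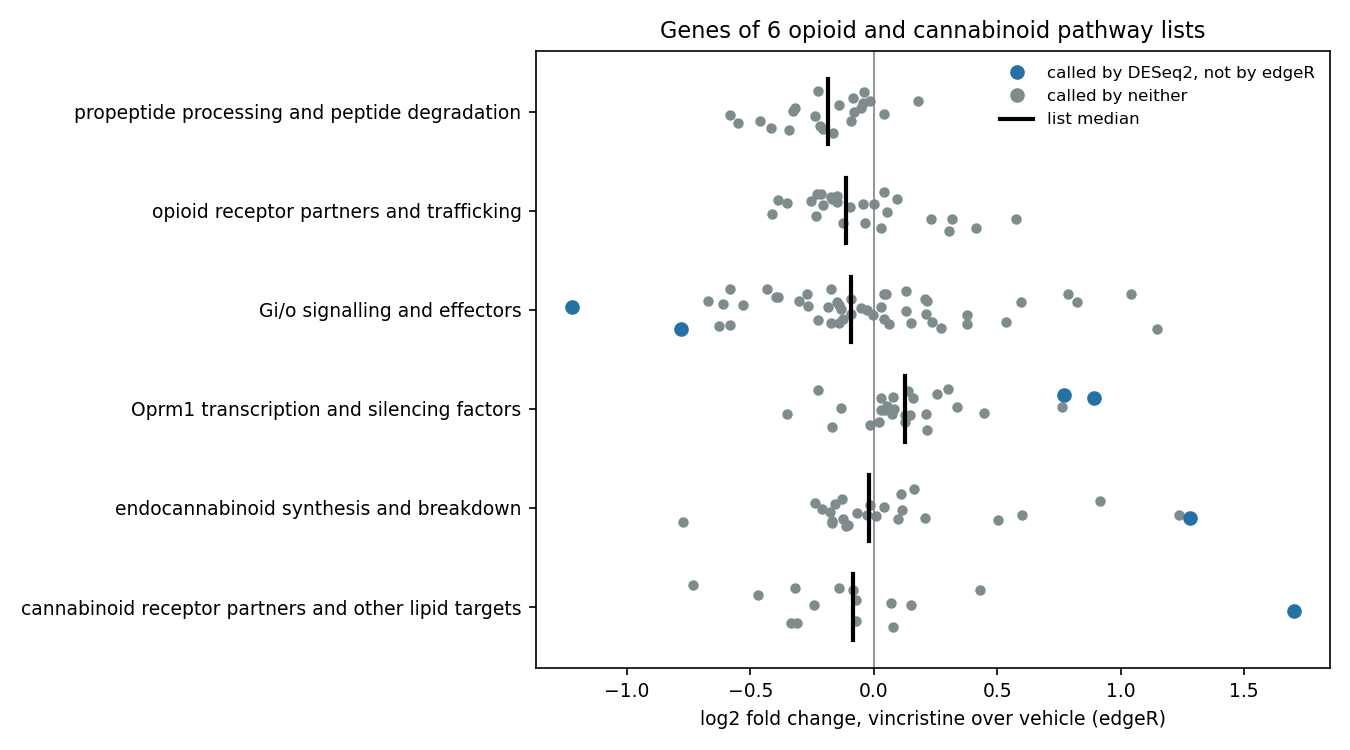
Log2 fold change of vincristine over vehicle (edgeR) for each tested gene of the 6 surrounding lists, with each list's median marked; blue points are the 6 genes called by DESeq2. Gng8 lies at -1.22 and Gpr119 at 1.70, and the list medians lie between -0.19 and 0.13.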

How the data were processed

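RNA of 6 pools, 3 vincristine and 3 vehicle, was sequenced from stranded total RNA libraries. The authors deposited raw counts of reads per gene symbol, 1 table per pool. STAR, SAMtools and HTSeq were used with mm10 (GRCm38), per the submitters' processing notes; tool versions, annotation and strand option were not given in the sources used here. Summary lines of the counter stayed out of library sizes and tests: 31.1% to 40.5% of tallied alignments were not unique, 14.8% to 24.8% lay outside genes and 0.253% to 0.331% were ambiguous. Groups and replicate numbers came from the titles; the table of vehicle replicate 3 is numbered 4 in its own name.

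The counts were fitted with edgeR 4.0.16 in R 4.3.3: filterByExpr (minimum count 10), TMM, robust dispersions and glmQLFTest, two-sided, on treatment alone, with Benjamini-Hochberg adjustment over 16706 genes and a threshold of 0.05. The SE is the log2 fold change divided by the square root of F. CPM uses TMM-scaled library sizes. The first principal component was taken from log2 CPM. The edgeR p-values set the difference between the groups against the spread between pools within a group. Within each group no pool was a copy of another: the chi-square per degree of freedom between replicates was at least 13.3. DESeq2 1.42.0 and limma 3.58.1 were alternatives, as were other scalings and filters, thinned counts, the replicate number as a block, a threshold of 0.1 and leaving out each pool; DESeq2 with a pool left out and the receptor ratio were added after the data were seen. edgeR and DESeq2 were tested on simulated counts, where DESeq2 recovered more of the changed genes than edgeR at each fold size and also called more unchanged genes. Exonic lengths and positions come from GENCODE M21 on GRCm38, with lengths for 35582 symbols.

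The 10 genes, all lists and the rule for named genes were chosen with earlier results of these data known. Named were all 10 members, the 2 genes of smallest p per list where none was called, and the 3 genes nearest to each member of at least 1 CPM. Also named, after their values were seen, were genes called by DESeq2, genes at the ends of a range, overlapping genes, Faah, Mgll, Gal, Adcyap1 and Gap43.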

Additional observations from a re-analysis of the deposited data

How the results depend on the processing

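Over 17 alternatives the estimates of the 9 tested genes kept their direction. Oprd1 ran between -1.85 and -1.21 on the log2 scale, Oprl1 between -0.61 and -0.36, Oprm1 between -0.63 and -0.09, Cnr1 between -0.46 and -0.14, Oprk1 between -0.17 and -0.01, Penk between 0.05 and 0.65, Pdyn between 0.32 and 1.27, Cnr2 between 0.09 and 0.71 and Pomc, over the 15 that kept it, between 0.21 and 0.64. Adjusted p of Oprd1 ran between 0.0154 and 0.724. Members called numbered 0 by edgeR and 1, Oprd1 each time, under DESeq2, under limma-voom with sample quality weights, under the replicate block, and under DESeq2 without vincristine replicate 1, 2 or 3 or vehicle replicate 1; other alternatives called 0. The replicate block called Oprd1 at -1.66 with an adjusted p of 0.0287, but the labels do not state that the numbers pair the pools. Deviations from the group means correlated at 0.428 and 0.248 for the pools numbered 1 and 2, each the highest value of its vincristine pool. For the pools numbered 3 the correlation was -0.0944, and vincristine replicate 3 correlated best with vehicle replicate 2, at 0.491. The table of vehicle replicate 3 carries the number 4. With 3 pools per group these correlations cannot settle whether the pools were paired. Over all genes edgeR called 60 (49 higher, 11 lower), DESeq2 551, no low-count filter 99, quality weights 476, the block 261 and a threshold of 0.1 125. Leaving out a pool gave 0 to 346: 346 without vincristine replicate 1, 6 and 18 without vincristine replicates 2 and 3, and 0 without each vehicle pool, where 1462, 1063 and 1409 genes had an unadjusted p under 0.05. Surrounding genes called numbered 0 by edgeR, 6 by DESeq2, 5 with quality weights, 1 with the block, 3 at a threshold of 0.1 and 0 to 4 with a pool left out. The causes were not tested. The median log2 fold change over all genes shifted by 0.0159 or less with other scalings. Depth limits Pnoc, Pomc and Pdyn most.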
